A study of Mus musculus with 4 samples.

Results

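The cell cycle genes described here were 34 genes of DNA replication and mitosis, picked by symbol from the 31053 genes counted in each library. Their transcripts were counted as unique molecular identifiers (UMIs, one for each captured RNA molecule) in single cells left after mature adipocytes were removed from the fourth inguinal fat depot, its stromal vascular fraction. This depot holds the mammary ducts, and the study set out to compare its cells after cold exposure. The animals were C57BL/6 mice of 8 weeks, with 2 libraries after 24 h at 4 °C and 2 after room temperature, and no other agent or allele named in the labels. The sources used here give neither sex, nor the temperature of the room, nor how many animals stood behind a library, and nothing says that the libraries came from separate animals. The p-values below therefore measure only the spread between these libraries, which may be technical.

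A dividing cell copies its DNA in S phase and separates the copies in M phase. The MCM proteins form the ring that opens the DNA, PCNA clamps the polymerase to it, and TYMS and RRM2 supply nucleotides. In M phase CDK1 with the cyclins starts mitosis, the Aurora and Polo kinases build the spindle, and CDC20 and UBE2C work with the anaphase promoting complex, which ends it. Many mitotic genes carry the CHR promoter element, through which the DREAM complex represses them in resting cells, and CCAAT, bound by NF-Y, while E2F factors time many replication genes.

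The promoters of 6 members are shown, from 250 bases before to 50 bases after the transcription start (RefSeq, GRCm38.p6), 5′ to 3′ on the gene's strand. Capitals mark matches on either strand to the CHR letters TTTGAA, to the CCAAT box, and to the E2F letters TTTCCCGC or TTTGGCGC. Plk1 (chr7:122159185-122159484, plus strand), Cdc20 (chr4:118437294-118437593, minus), Ccnb1 (chr13:100786437-100786736, minus) and Ube2c (chr2:164769679-164769978, plus) are shown because they were among the members that rose in T cells. Mki67 (chr7:135716330-135716629, minus) and Mcm6 (chr1:128359656-128359955, minus) stand beside them as members that did not, chosen after their values were seen.
Plk1: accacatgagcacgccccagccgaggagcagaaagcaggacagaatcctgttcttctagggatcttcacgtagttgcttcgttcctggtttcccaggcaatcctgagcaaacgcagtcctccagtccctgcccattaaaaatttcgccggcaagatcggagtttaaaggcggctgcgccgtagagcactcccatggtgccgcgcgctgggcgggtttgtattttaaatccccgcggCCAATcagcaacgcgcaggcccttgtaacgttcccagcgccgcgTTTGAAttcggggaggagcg
Cdc20: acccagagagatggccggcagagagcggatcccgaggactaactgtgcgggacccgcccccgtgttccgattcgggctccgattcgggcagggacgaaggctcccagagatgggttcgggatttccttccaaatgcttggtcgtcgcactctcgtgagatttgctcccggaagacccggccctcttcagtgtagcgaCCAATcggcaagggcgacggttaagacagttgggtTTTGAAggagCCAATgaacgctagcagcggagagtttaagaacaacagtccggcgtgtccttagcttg
Ccnb1: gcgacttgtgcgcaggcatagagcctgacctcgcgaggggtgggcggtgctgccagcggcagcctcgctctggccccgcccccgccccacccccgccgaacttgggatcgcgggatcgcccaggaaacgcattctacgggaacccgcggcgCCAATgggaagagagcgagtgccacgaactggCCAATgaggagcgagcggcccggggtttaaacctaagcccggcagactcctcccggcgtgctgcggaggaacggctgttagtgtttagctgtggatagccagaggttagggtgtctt
Ube2c: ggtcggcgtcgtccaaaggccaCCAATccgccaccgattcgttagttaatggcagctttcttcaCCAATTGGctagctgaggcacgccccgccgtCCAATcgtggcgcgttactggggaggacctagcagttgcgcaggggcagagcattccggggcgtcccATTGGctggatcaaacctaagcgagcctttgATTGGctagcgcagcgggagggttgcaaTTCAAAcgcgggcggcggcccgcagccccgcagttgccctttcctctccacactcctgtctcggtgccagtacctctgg
Mki67: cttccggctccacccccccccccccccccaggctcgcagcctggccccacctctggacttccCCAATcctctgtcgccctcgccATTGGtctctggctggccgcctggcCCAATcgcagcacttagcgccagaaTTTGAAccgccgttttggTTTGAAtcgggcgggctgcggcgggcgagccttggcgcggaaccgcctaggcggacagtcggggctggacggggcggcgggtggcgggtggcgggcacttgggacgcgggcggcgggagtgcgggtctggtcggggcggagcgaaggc
Mcm6: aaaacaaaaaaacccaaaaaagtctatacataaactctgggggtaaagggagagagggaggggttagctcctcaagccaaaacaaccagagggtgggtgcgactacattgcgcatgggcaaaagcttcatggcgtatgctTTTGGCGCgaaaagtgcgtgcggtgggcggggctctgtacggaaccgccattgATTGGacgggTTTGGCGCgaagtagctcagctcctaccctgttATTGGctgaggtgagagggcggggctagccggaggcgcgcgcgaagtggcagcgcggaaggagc
The promoters of Plk1, Cdc20 and Ube2c each held 1 CHR match, and that of Ccnb1 held 0 with 2 CCAAT matches. That of Mki67, which did not rise, held 2 CHR and 3 CCAAT matches, and that of Mcm6 held 2 E2F and 2 CCAAT matches, so these matches did not separate the members that rose from the others. The table held 28 of the 34 members, without Tpx2, Kif20a, Stmn1, Aurkb, Ccna2 and Mcm4. CHR was found in 15 of 20 mitotic promoters (75%) and in 1 of 8 promoters of replication genes (12.5%), against 18.1% of all 27025 promoters. CCAAT was found in 25 of 28 (89.3%), against 37.9% of all. An E2F match was found in 4 of the 8 replication promoters and in 0 of the 20 mitotic ones, against 1.63% of all. One CCAAT match can overlap another on the opposite strand, as in Ube2c. These matches describe letters in a window and nothing about the factors that bind there.

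The libraries held 3871 to 6339 barcodes and 35198164 to 55160902 UMIs. After filtering, 15197 cells remained, with a median of 6742 to 7592 UMIs per library, and 5 to 10 barcodes were shared by any pair of libraries. Clusters were named from marker genes, and cell cycle genes were left out of the clustering. There were 9 tested cell classes, each with at least 20 cells in every library: 2529 T, 1195 B, 387 NK, 613 dendritic and 3328 macrophage or monocyte-like cells, 2869 fibroblast or adipose progenitor-like cells, 754 vascular endothelial cells, and 1540 hormone-sensing and 319 alveolar progenitor-like cells of the mammary lumen. A further 690 luminal cells carried the markers of both luminal types at a median of 44899.5 UMIs and belonged to no single class. In summed cells, more cells that express a gene and more RNA of it per cell cannot be told apart, so the share of dividing cells is given beside the levels.

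A cell was counted as dividing when it held at least 2 UMIs, summed over Mki67, the Ki-67 proliferation antigen, and Top2a, the topoisomerase that untangles chromosomes. Of the 15197 cells, 761 (5.01%) did so. None of the 94 neutrophils did, a cell type that no longer divides, which allows a share of up to 3.19% at a median of 1587.5 UMIs per cell. That limit reflects the number of neutrophils and their low depth; among the deeper fibroblast or adipose progenitor-like cells (median 9245 UMIs) 0.244% of 2869 cells did so.

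Most mitotic members were found almost only in those 761 cells. For 20 of the 25 mitotic members more than 80% of all UMIs lay there, up to 97.3% for Hmmr, a spindle protein, and 96.5% for Ccna2, cyclin A2. For Mki67 and Top2a (95.4% and 93.2%) this follows from the definition. The replication genes were spread more widely, with a median share of 49.0% over 9 genes, from 33.7% for Pcna to 91.6% for Rrm2. Cenpa, the histone variant that marks the centromere, was the mitotic member with the smallest share, 47.8%, followed by Aurka at 61.6% and Kif23 at 63.8%. Genes outside the members and lists whose summed levels were most like the median member, over 36 sums of class and library, were Spc24 (Pearson r = 0.976), Pclaf (0.946), Cenpm (0.927), Aspm (0.927) and Knstrn (0.924); these points share libraries and depth, and no test was made.

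**Figure D1:**
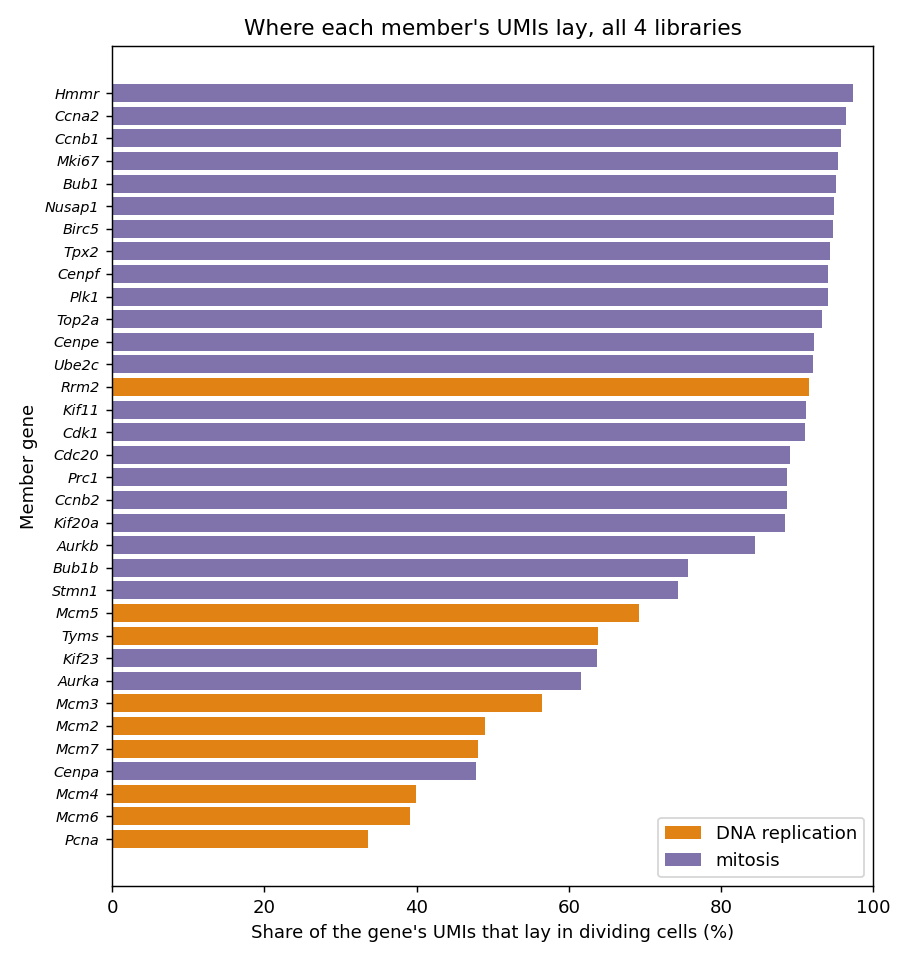
Share of each member's UMIs that lay in dividing cells, in percent of its UMIs over all 15197 cells of the 4 libraries; orange bars are genes of DNA replication and purple bars genes of mitosis. Hmmr stands at 97.3% and Pcna at 33.7%, and among the mitotic genes Cenpa is lowest at 47.8%.

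The share of dividing cells did not differ detectably between cold and room temperature in the whole fraction or in any of the 6 classes tested. In the whole fraction it was 2.39% and 6.16% in cold and 5.96% and 5.61% at room temperature, 4.28% ± 2.66 against 5.79% ± 0.249 (SD, n = 2 each). An exact permutation test gave a two-sided p of 1, and 2 against 2 libraries cannot go below 0.33. The first cold library alone stood low: without it the difference turned from 1.51 percentage points lower to 0.372 higher in cold.

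The widest spread lay in the mammary luminal cells. Among hormone-sensing cells 1.58% and 7.13% divided in cold, against 29.3% and 5.34% at room temperature. Among alveolar progenitor-like cells the shares were 0% and 7.14% against 30.2% and 5.88%. Luminal cells with both marker sets had 2.70% and 10.3% against 35.3% and 15.9%. In all 3 groups the first room temperature library was far above the other libraries, and in hormone-sensing and alveolar cells the second one lay within the range of the cold libraries. In luminal cells with both marker sets, both cold libraries lay below both room temperature ones. They also did with the 3 groups together, at 1.71% and 7.75% against 30.8% and 9.70%. These last 2 sets of shares were not tested. The fitted log2 fold change was -2.01 (SE 1.25) in hormone-sensing cells and -2.38 (SE 1.49) in alveolar progenitors, both with adjusted p = 0.405 (edgeR quasi-likelihood test on dividing cells with all cells as offset, Benjamini-Hochberg over 6 classes). Without the first room temperature library the hormone-sensing value was -0.29.

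The hormone-sensing class was made of a pair of clusters that divided at different rates. In the cluster led by Upk3a, a uroplakin gene, 6 of 26 and 32 of 102 cells divided in cold and 111 of 281 and 7 of 28 at room temperature. In the cluster led by Prlr, the prolactin receptor, the shares were 0.418% and 0.771% in cold and 7.58% and 0% at room temperature. Of all hormone-sensing cells, 5.15% and 20.8% lay in the Upk3a-led cluster in cold, as did 68.0% and 21.4% at room temperature. The first room temperature library thus stood apart in the makeup of the class as well. Median depth was 17002 and 18366 UMIs against 22957 and 19626, and with every cell thinned to 3000 UMIs the shares were 0% and 2.09% against 12.2% and 2.42% (17, 13, 10 and 7 shallower cells left out). In alveolar progenitors the medians were 3430 and 4175 against 12316 and 11514 UMIs, and thinning gave 0% and 4.08% against 4.44% and 0%, with 47, 21, 8 and 9 shallower cells left out. The part of depth in that class's shares was not tested otherwise.

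Among T, dendritic and B cells the shares overlapped between temperatures. In T cells they were 4.58% and 11.02% in cold and 4.87% and 11.1% at room temperature, a log2 fold change of -0.04 (SE 1.13; adjusted p = 0.975, edgeR). Both low values came from libraries numbered 1. Dendritic cells were at 12.7% and 7.08% against 11.8% and 13.5%, which overlapped. In macrophages or monocytes, at 2.25% and 1.65% against 2.34% and 3.93%, both cold libraries lay below both others (log2 fold change -0.67, SE 1.15; edgeR adjusted p = 0.861). B cells were at 1.82% and 11.7% against 3.67% and 3.03%, so that the second cold library alone was high. Few fibroblast or adipose progenitor-like cells divided, 7 of 2869, with 0 of 720 and 1 of 467 in cold and 3 of 1334 and 3 of 348 at room temperature. Of vascular endothelial cells 6 of 754 divided, and of NK cells 8 of 387. These 3 classes held under 10 dividing cells and were not tested for their share.

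**Figure D2:**
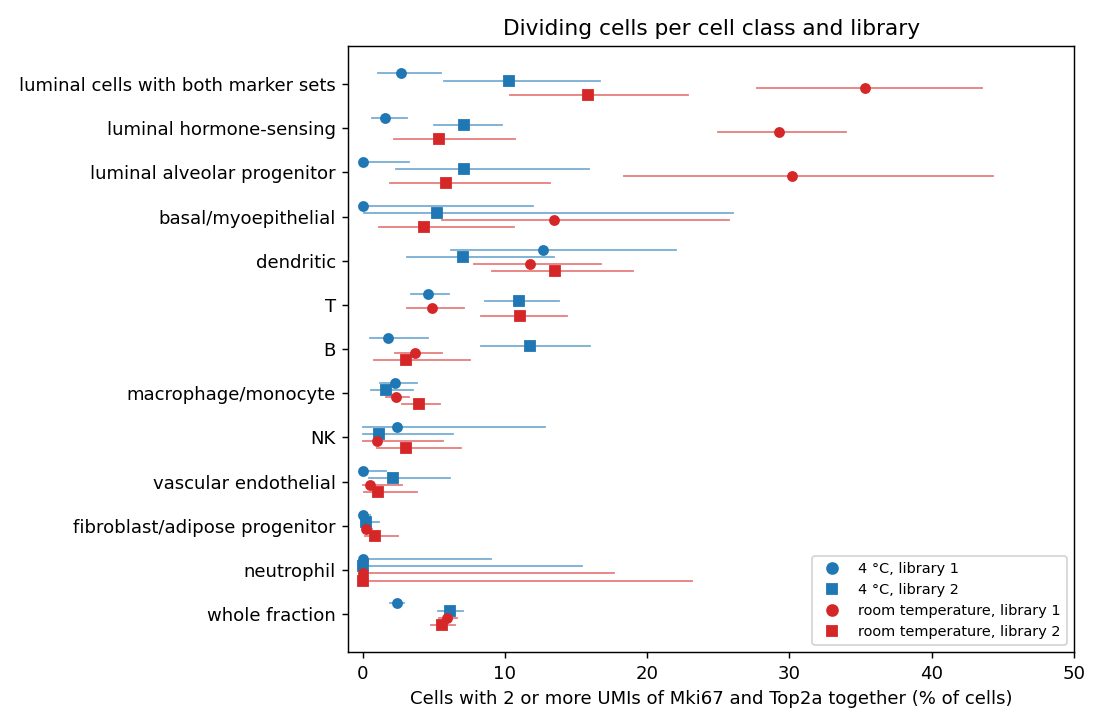
Percent of cells with at least 2 UMIs of Mki67 and Top2a together, by class; each point is 1 library (blue 4 °C, red room temperature, circles library 1, squares library 2) and lines are 95% Clopper-Pearson intervals, which cover counting error only. The first room temperature library stands near 30% or above in the 3 luminal groups, while T cells pair by library number at 4.58% and 4.87%, and 11.02% and 11.1%.

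T cells were the only class tested in which members passed the test. Of the 34 members 6 rose in cold and 0 fell, and 63 of the 10053 genes tested there rose (0.627%; 2.40% passed in either direction). The 6 were genes of mitotic entry, spindle and exit: the kinases Plk1 and Aurkb, cyclin Ccnb1, the spindle factor Tpx2, and Cdc20 and Ube2c. The median log2 fold change of the 34 members was 0.42, against 0.01 for all genes tested, with 30 of 34 above 0. Mki67 (-0.08) and Top2a (0.31) did not pass.

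Plk1 encodes Polo-like kinase 1, which drives spindle assembly (chr7:122159439-122169873, plus strand, GRCm38). Its level was 27.1 and 32.2 CPM (UMIs of the gene per 1000000 summed UMIs) in the cold libraries, against 10.1 and 7.43. Its log2 fold change was 1.70 (SE 0.21; edgeR adjusted p = 0.00932). Aurkb encodes Aurora kinase B, which corrects the attachment of chromosomes (chr11:69045647-69051664, plus). It stood at 27.4 and 38.5 CPM against 11.03 and 16.3, a log2 fold change of 1.14 (SE 0.24; edgeR adjusted p = 0.0496). For both kinases the groups did not overlap.

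Ccnb1, cyclin B1, the partner of CDK1 (chr13:100778650-100786570, minus), was at 40.1 and 44.3 CPM in cold against 19.0 and 19.6 at room temperature. The log2 fold change was 1.05 (SE 0.15; edgeR adjusted p = 0.0159). Tpx2, which activates Aurora A on spindle microtubules (chr2:152847964-152895321, plus), was at 39.6 and 46.2 against 17.2 and 24.1, a log2 fold change of 0.95 (SE 0.19; edgeR adjusted p = 0.0412). Again each cold library was above each room temperature library.

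Cdc20, an activator of the anaphase promoting complex (chr4:118432901-118437352, minus), was at 49.8 and 56.4 CPM in cold and 21.6 and 19.9 at room temperature. It gave the smallest adjusted p among the members, with a log2 fold change of 1.29 (SE 0.14; edgeR adjusted p = 0.00688). Ube2c, the ubiquitin-conjugating enzyme of that complex (chr2:164769898-164778822, plus), was at 136 and 154 against 85.6 and 79.3, a log2 fold change of 0.74 (SE 0.12; edgeR adjusted p = 0.0217). Cdc20 overlaps Elovl1 and Ube2c overlaps Tnnc2 on the opposite strand in GENCODE M21, and the sources used here do not say whether counting used strand.

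By role, both genes of anaphase promotion rose in T cells, as did 2 of 6 mitotic kinases and checkpoint genes, 1 of 4 cyclins and CDK1, and 1 of 8 spindle genes. None of the 6 MCM genes passed (log2 fold changes 0.11 to 0.43), nor did Pcna (-0.03), Tyms (0.33) or Rrm2 (0.39). Several mitotic genes missed the threshold with large values. Kif20a, a kinesin of cytokinesis, had a log2 fold change of 1.58 (SE 0.38; edgeR adjusted p = 0.0722), and Cdk1 0.69 (SE 0.15; edgeR adjusted p = 0.0547). Both cold libraries were above both room temperature libraries for 22 of the 34 members, and the second cold library held the highest level of 31. The same counts over all genes tested are not given here, so these have no background to be read against.

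Dividing T cells were unevenly spread over the T cell clusters. A small cluster, led by Pclaf, a PCNA-binding factor of replication, held 70 and 74 cells in cold and 56 and 46 at room temperature. Its T cell markers stood at a mean log2 of 3.96 above the median cluster. Those of ILC2, group 2 innate lymphoid cells, came second at 2.73. With the cell cycle genes kept in the clustering, a separate cluster of 152 cells was named ILC2. Of the dividing T cells, the cluster led by Tnfrsf4 held 19.6% and 27.7% in cold and 54.2% and 51.0% at room temperature. Dividing cells in the Pclaf-led cluster were 24 of 70 and 25 of 74 in cold, against 3 of 56 and 10 of 46 at room temperature. It held 52.2% and 38.5% of the dividing T cells in cold, against 12.5% and 20.4%. The part of this makeup in the T cell levels was tested only by leaving the Pclaf-led cluster out. With this cluster left out, an alternative chosen after seeing the data, 0 members rose and 1 fell (1 had an unadjusted p under 0.05 by edgeR; 1.65% of 9663 genes passed), and the median log2 fold change of the members was -0.17. Because the cluster is led by a gene that follows the members, leaving it out also takes out those dividing cold cells, and it is a description of where the UMIs lay. Plk1 then stood at 8.97 and 18.1 CPM in cold against 10.97 and 6.36, and Ccnb1 at 10.4 and 22.4 against 21.4 and 16.1, so the groups overlapped. With the doublets kept in the data, 0 members passed in T cells (3 had an unadjusted p under 0.05 by edgeR). A cluster of 208 cells with Top2a among its leading genes then carried T and ILC2 markers and joined no class. Another of 282 cells, led by Ccl5, carried T and NK markers and joined none either. The part of each in that count was not tested.

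Within the dividing T cells alone, 46 and 65 in cold and 24 and 49 at room temperature, 0 of 34 members passed (0.911% of 7461 genes did). By edgeR 8 members had an unadjusted p under 0.05, a count without a share of all genes beside it. The choice of these cells used Mki67 and Top2a, so the values of both genes there, Mki67 among the 8, are set in part by it. Plk1 was at 112 and 95.8 CPM in cold and 61.6 and 32.0 at room temperature there (log2 fold change 1.22, SE 0.28; edgeR adjusted p = 0.0617). Cdc20 was at 202 and 161 against 115 and 71.7 (log2 fold change 0.99, SE 0.23; edgeR adjusted p = 0.0629). Ube2c overlapped, at 565 and 449 against 532 and 314. Median depth also moved with temperature in these cells, at 23219.5 and 18619 UMIs in cold against 12512 and 13155, as did the clusters that held them. The part of depth and of clusters in the levels was not tested.

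Markers of other cells within the T class moved between libraries as well. Summed erythroid markers (6 genes, 1 at 0) were at 8.74 and 230 CPM in cold and 2308 and 4.46 at room temperature. Summed mast cell markers (6 genes, 0 at 0) were at 126 and 3.15 against 1680 and 206. The first room temperature library was highest for both, while summed T cell markers lay between 3948 and 4221 in all 4 libraries. Some lists, picked after their values were seen, separated the groups. Dendritic markers were at 419 and 369 CPM in cold against 671 and 719. Fibroblast or adipose progenitor ones were at 116 and 75.0 against 346 and 123, and plasma cell ones at 46.4 and 55.9 against 61.3 and 64.5. Basal ones were at 7.75 and 6.77 against 10.1 and 9.51, and neutrophil ones, higher in cold, at 2.64 and 1.94 against 1.76 and 0.891. Vascular endothelial ones were at 88.8 and 80.55 against 71.0 and 67.7. Within dividing T cells dendritic markers were at 154 and 256 against 465 and 684. ILC2 ones there were at 162 and 290 against 372 and 414, and vascular endothelial ones at 51.9 and 58.3 against 25.2 and 44.8. Fibroblast or adipose progenitor ones there were at 36.5 and 38.2 against 202 and 99.9, and B cell ones at 166 and 202 against 372 and 298. Neutrophil and erythroid ones, at most 3.60 CPM, were higher in cold there. The part of all these markers in the T cell levels was not tested.

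**Figure D3:**
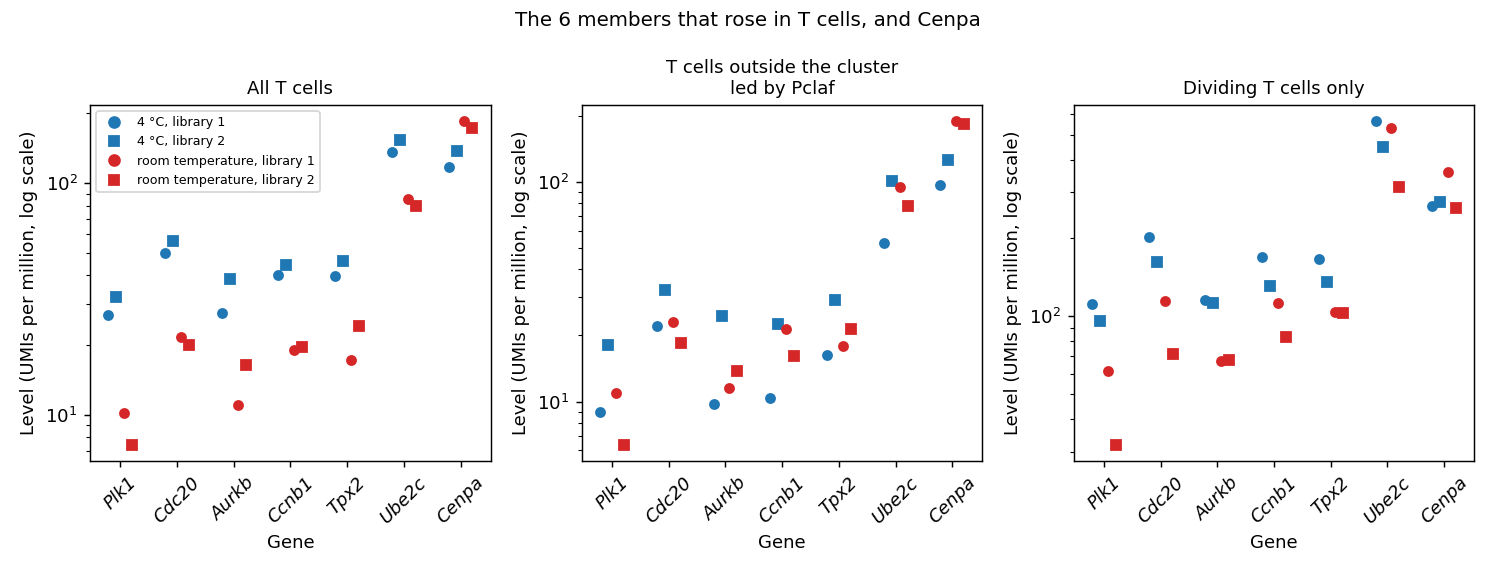
Levels of the 6 members that rose in T cells, and of Cenpa, in CPM on a log axis, for all T cells (left), T cells outside the cluster led by Pclaf (middle) and dividing T cells (right); each point is 1 library. In all T cells the blue points of the 6 genes lie above the red ones, as for Plk1 at 27.1 and 32.2 against 10.1 and 7.43, and outside the cluster they overlap.

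Cenpa stood lower in cold where most mitotic genes stood higher. In T cells it was at 118 and 138 CPM in cold and 186 and 172 at room temperature, and the groups did not overlap. Its log2 fold change was -0.56 (SE 0.12; edgeR adjusted p = 0.0525), just short of the threshold. In T cells without the dividing ones it was at 72.7 and 68.1 against 153 and 146, and there it fell, with a log2 fold change of -1.11 (SE 0.13; edgeR adjusted p = 0.0118), the 1 member that passed of 17 tested, Top2a included, whose level the choice of cells limits (1.69% of 9311 genes did). It also fell outside the Pclaf-led cluster, with a log2 fold change of -0.79 (SE 0.13; edgeR adjusted p = 0.0207). In the dividing T cells it was at 265 and 275 against 358 and 260, which overlapped.

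Side by side, the other classes gave Cenpa values mostly below 0, none past the threshold. Macrophages or monocytes had 48.0 and 59.2 CPM in cold and 91.2 and 87.2 at room temperature (log2 fold change -0.75; edgeR adjusted p = 0.101). Dendritic cells had 63.4 and 60.6 against 76.1 and 95.9 (-0.49), and fibroblast or adipose progenitor-like cells 3.13 and 4.97 against 9.86 and 18.4 (-1.73). In these 3 classes the groups did not overlap. B cells overlapped, at 173 and 168 against 185 and 122 (0.16).

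In hormone-sensing luminal cells all 34 members had fitted values below 0, yet 0 passed (0.00793% of 12612 genes did; 1 member had an unadjusted p under 0.05, and DESeq2 called 0). The median log2 fold change was -1.84, against -0.02 for all genes tested. Summed over the 34 members, the level was 188 and 698 CPM in cold against 2057 and 458 at room temperature. The first room temperature library was highest for 34 of 34 members and the first cold library lowest for 32. The cold library with the higher level was thus above the room temperature library with the lower one.

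By role, the spread was widest for the mitotic genes. The cyclins and Cdk1 summed to 9.11 and 73.4 CPM in cold and 238 and 32.8 at room temperature. Cdc20 and Ube2c summed to 6.89 and 64.1 against 240 and 29.3. The 6 MCM genes, which load onto DNA before replication, spread less, at 84.2 and 144 against 238 and 113. Without the first room temperature library the median over the members was 0.01, and without the second cold library it was -4.14.

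Alveolar progenitor-like cells followed the same libraries. The 34 members summed to 167 and 1123 CPM in cold and 3121 and 436 at room temperature, and 21 members passed the filter on low counts. Of these 0 passed the test (0.204% of 7348 genes did; 4 had an unadjusted p under 0.05). With the 3 luminal groups summed together, chosen after seeing the data, 0 of 34 passed (0% of 13578 genes did; 0 members had an unadjusted p under 0.05 by edgeR), with a median log2 fold change of -1.89.

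**Figure D4:**
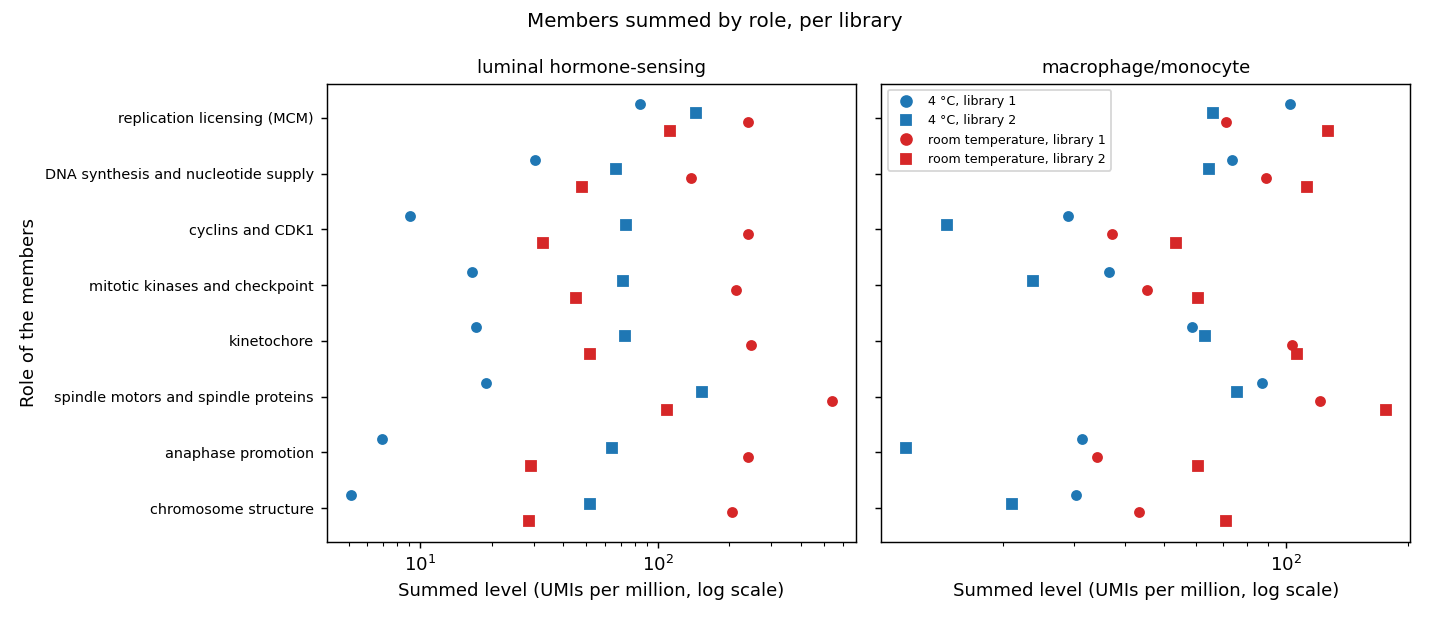
Members summed by role in hormone-sensing luminal cells (left) and macrophages or monocytes (right), in CPM on log axes of different range; each point is 1 library. In luminal cells the first room temperature library lies highest in every role and the first cold library lowest, while in macrophages the cold libraries lie lower in all roles but MCM genes.

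Macrophages or monocytes showed smaller values of one sign. The median log2 fold change of the 34 members was -0.83, against 0.00 for all genes tested, with 33 of 34 below 0. None passed (0.507% of 11037 genes did), and DESeq2 called 1. By edgeR 14 members had an unadjusted p under 0.05. Neither that count nor the DESeq2 one has a share of all genes beside it, so they have no background. Both cold libraries were below both room temperature libraries for 23 members, a count not given here for all genes tested and so without a background. Stmn1, stathmin, which destabilises microtubules, came closest, at 49.97 and 48.0 CPM in cold against 77.3 and 107 (log2 fold change -0.91, SE 0.17; edgeR adjusted p = 0.0994). Mki67 was at 12.9 and 9.61 against 20.2 and 29.8 (-1.11, SE 0.25; edgeR adjusted p = 0.155).

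In every library but the second cold one, most dividing macrophages or monocytes lay in the cluster led by Lyz1, a lysozyme gene, where 11 of 129 and 1 of 74 cells divided in cold and 26 of 295 and 23 of 224 at room temperature. With the cell cycle genes kept in the clustering, the median was -0.14 over the 23 members then tested, in place of -0.83 over 34, and the dividing share was higher in cold, at a log2 fold change of 0.39. In that setting a cluster of 94 cells carried macrophage or monocyte and dendritic markers, with Ube2c, Pclaf and Birc5 among its leading genes. It held 14 and 7 cells in cold and 40 and 33 at room temperature. It joined no class, so its cells were not counted in the share of 0.39. The direction of the share in this class thus depended on how cells were assigned, and the part of that cluster in it was not tested.

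The clusters of fibroblast and adipose progenitor-like cells differed in size between the groups. The cluster led by Cxcl13, a chemokine gene, held 445 and 249 cells in cold against 99 and 8, and that led by Igfbp6 and Pi16 held 82 and 102 against 563 and 178. The 8 markers of the class summed to 26500 and 27660 CPM in cold against 45440 and 43480, and the part of this makeup in the values below was not tested. The class held few member UMIs, and 19 of the 34 members passed the filter. Of these 0 passed the test, while 2.91% of 11594 genes did. By edgeR 12 had an unadjusted p under 0.05, and DESeq2 called 4. Neither of these counts has a share of all genes beside it. Cenpf, a kinetochore protein, was at 0 and 0.276 CPM in cold and 2.67 and 4.42 at room temperature (edgeR adjusted p = 0.0549), which rests on 50 UMIs in all. With the 7 dividing cells left out, 11 members were tested, 0 passed, and their median log2 fold change was 0.05 in place of -1.73 over 19. Mcm7 lay above 0, at 21.6 and 19.6 against 11.7 and 15.3 (log2 fold change 0.71, SE 0.18; edgeR adjusted p = 0.0987).

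In the remaining classes 0 members passed as well. In B cells 32 of 34 lay above 0 with a median log2 fold change of 0.55, and the second cold library was highest for 30 (0% of 7612 genes passed; 1 member had an unadjusted p under 0.05 by edgeR, and DESeq2 called 0). In dendritic cells 30 members were tested, with a median of -0.15 (0.486% of 8231 genes passed; 3 with an unadjusted p under 0.05). Of the 12 members tested in NK cells (0.934% of 4602 genes passed) and the 12 in vascular endothelial cells (0.0193% of 10337), 2 each had an unadjusted p under 0.05. In the whole fraction 27 of 34 lay below 0 with a median of -0.44, and 0 passed (0% of 15990 genes did; 3 with an unadjusted p under 0.05 by edgeR).

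**Figure D5:**
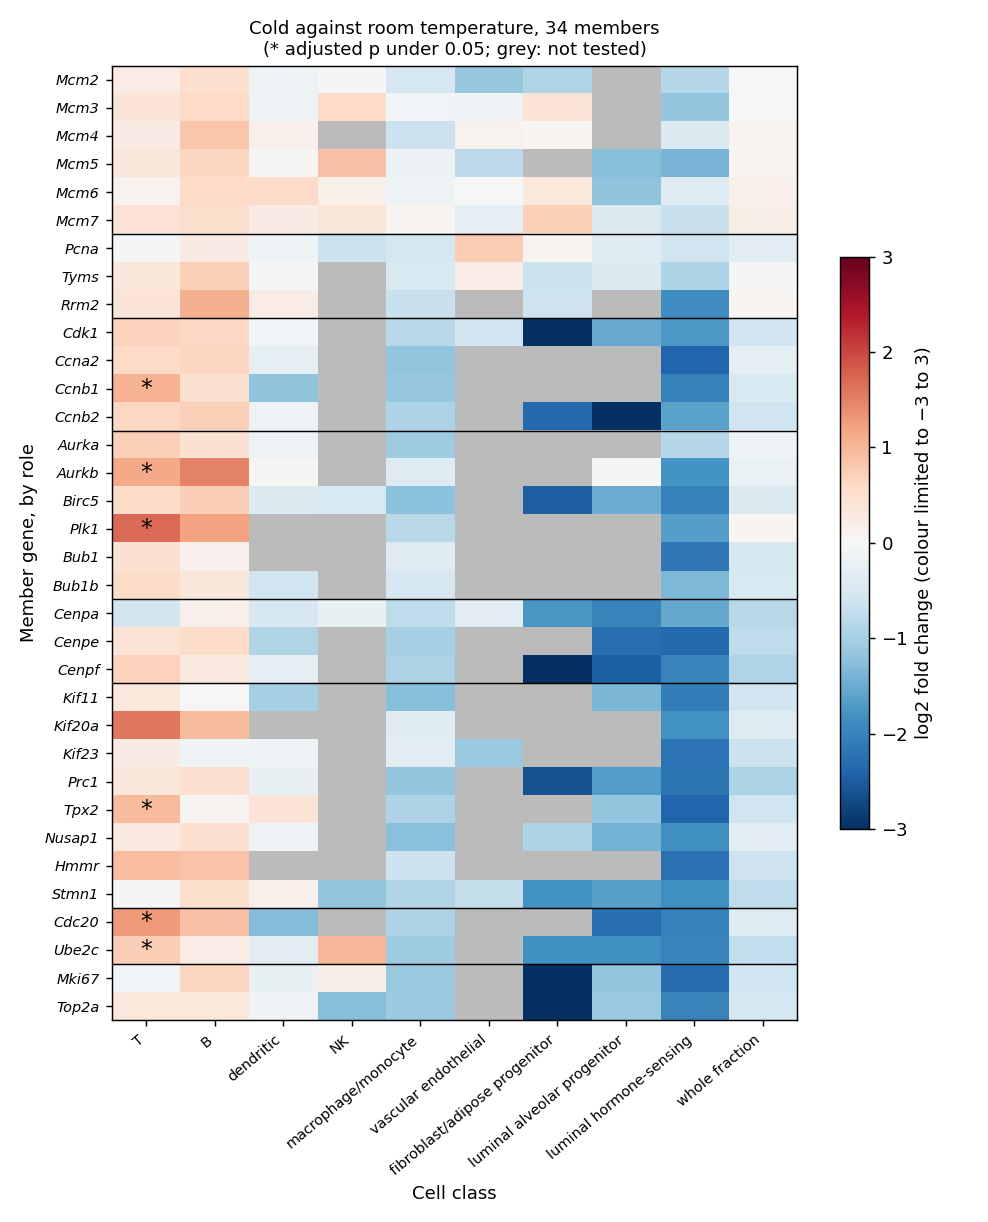
Fitted log2 fold changes (cold against room temperature, edgeR) of the 34 members in the 9 classes and the whole fraction, ordered by role, red higher and blue lower in cold, with asterisks at adjusted p under 0.05 and grey where a gene was not tested. The T column is mostly red with 6 asterisks, Cenpa being blue, and the hormone-sensing column is blue for 34 of 34 members with none.

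Whether the effect of cold differed among classes was tested with an interaction term over all 9. No member passed for a difference among any classes (1.01% of 13635 genes did; 2 members had an unadjusted p under 0.05 by edgeR). For T cells against the other classes 0 passed (0.0147% of genes did, with 4 members under 0.05 unadjusted by edgeR). For hormone-sensing cells 0 passed (0.0440%, with 5 members under 0.05 unadjusted by edgeR). Some members had an F near 0 at a large log2 value there: Kif20a (-2.03, SE 11224.6), Ccna2 (-1.38, SE 345) and Bub1 (-1.51, SE 309). For such members the fit could not measure a difference, and not passing says nothing about them. With no filter on low counts 30 of 34 members passed for a difference among any classes (6.47% of genes did), 17 for T cells, all higher (0.473%), and 14 for hormone-sensing cells, all lower (0.700%). Whether the rise in T cells differed from the effect in other classes thus depended on the filter.

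The other genes of the cell cycle moved in T cells as follows. Of 50 further genes of G2 and M phase 3 rose and 0 fell: Sgo2a, a shugoshin that guards sister chromatids (log2 fold change 1.80, edgeR adjusted p = 0.0438), Dlgap5, a spindle protein (1.498, 0.0375), and Racgap1, of cytokinesis (0.69, 0.0496). Of 45 further S phase genes 0 passed (9 had an unadjusted p under 0.05 by edgeR), with a median log2 fold change of 0.18 and 33 above 0. Among 17 tested genes of the CDK inhibitor and arrest list 3 fell and 1 rose. Cdkn1b, which encodes the CDK inhibitor p27, was at 70.8 and 70.9 CPM in cold and 139.8 and 121 in the other group (-0.94 on the log2 scale, SE 0.12; edgeR adjusted p = 0.0128). Mxd4, a MAX partner (-0.90), and Ccng2, cyclin G2 (-0.84), also fell, and Cdkn2d, which encodes p19 (0.70), rose.

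Cdkn1b and Mxd4 fell also outside the Pclaf-led cluster (-0.79, edgeR adjusted p = 0.0186, and -0.76, 0.0220), where no member rose. Of the G1 list Ccnd3, cyclin D3 of lymphocytes, rose in T cells, at 258 and 257 CPM against 170 and 149 (log2 fold change 0.62, SE 0.12; edgeR adjusted p = 0.0375). Of the histone list Hist1h1b, a linker histone, rose (0.92, edgeR adjusted p = 0.0229).

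In other classes few genes of these lists passed. In fibroblast or adipose progenitor-like cells, whose clusters differed in size between the groups as given above, 3 genes of the arrest list rose: Trp53inp1 (1.32), Gadd45g (1.25) and Cdkn1a, which encodes p21, at 193 and 223 CPM in cold and 120 and 85.5 in the other group (1.04 on the log2 scale, SE 0.19; edgeR adjusted p = 0.0455). In dendritic cells Ccnd1, cyclin D1, fell, at 63.4 and 63.5 against 132 and 194 (-1.37, edgeR adjusted p = 0.0473), and Hist1h1c rose (1.49, edgeR adjusted p = 0.0252). In macrophages or monocytes Gadd45b fell (-1.10, edgeR adjusted p = 0.0413). In B, NK, vascular endothelial and both luminal classes 0 genes of the 5 lists passed by edgeR, while each list held between 0 and 7 genes with an unadjusted p under 0.05.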

How the data were processed

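The authors deposited raw UMI counts per gene and barcode, with at least 500 UMIs in each barcode. The file headers and the submitters' processing notes name Cell Ranger 3.0.2; the notes also name mm10, GRCm38 and Seurat, and the sources used here give no annotation release. The members, lists and motifs were chosen with earlier results of these data known.

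Cells needed at least 500 genes and less than 15% of their UMIs from mitochondrial genes. Doublets were scored against simulated ones and removed at a rate of 0.8% per 1000 cells (74 to 239 per library). Leiden clusters used 2000 variable genes without the members and the 5 lists, 30 components, 15 neighbours and resolution 1 (Python 3.11.15, scikit-learn 1.9.0, igraph 0.11.9, leidenalg 0.10.2). They were named from at least 3 markers. The naming cutoffs were chosen after the files had been seen, and 1292 cells in mixed or unnamed clusters joined no class.

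Summed counts of each class were tested with edgeR 4.0.16 (TMM, filterByExpr, two-sided quasi-likelihood test, Benjamini-Hochberg over all genes tested, threshold 0.05; R 4.3.3). The SE is the absolute log2 fold change divided by the square root of F. Percentages of all genes that passed are at the adjusted threshold. Counts of members at an unadjusted p under 0.05, and those called by DESeq2, have no such share beside them. Any of the 34 members could be named; library values are given for up to 6 called per class, and up to 4 called genes of each other list are named. Members that did not pass and have library values were chosen after their values were seen. Alternatives were RLE scaling, DESeq2 1.42.0, testing every gene whatever its count, a replicate block, other cell filters and clusterings, and leaving out each library. Dividing cells per class were tested likewise where at least 10 divided. Intervals (95%, Clopper-Pearson) and limits of 3 counts for a count of 0 cover counting error only. Simulated counts were drawn with the same spread for every gene of a class, held under an upper limit and not fitted to the members. The rates below therefore do not cover genes that spread more between libraries. On these counts, 97% of 4-fold and 53.5% of 2-fold changes were recovered in T cells (9842 genes). Recovery of 2-fold changes was 32.0% in dendritic (7953 genes), 16.2% in B (7372) and hormone-sensing (12398), and 6.19% in alveolar cells (6929); of 4-fold changes it was 95%, 83%, 91.8% and 70.7%. Gene positions are from GENCODE M21 (GRCm38).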

Additional observations from a re-analysis of the deposited data

How the results depend on the processing

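For the number of members past the threshold in T cells, 6 as reported, all other settings gave 15 with no low-count filter, 20 with the replicate block, 0 with doublets kept, 1 (Cenpa, lower) with dividing cells left out, and 6 to 12 with 1 library left out; without the Pclaf-led cluster and with dividing cells only, both chosen after seeing the data, it was 1 and 0. DESeq2 (6), RLE scaling (5), resolution 2 (8), looser cell filters (8) and cell cycle genes kept in clustering (5) stayed within 1.5 times, but not with the same members: Tpx2 was lost with DESeq2 (5 higher, 1 lower; adjusted p = 0.0590) and with cell cycle genes kept in clustering (0.0530), Aurkb with RLE scaling (0.0535), and both without the first room temperature library (0.0872 and 0.0723). For most settings of this section the share of all genes called is not given. A larger count of members therefore cannot be read as a stronger result. Where 0 members passed, no low-count filter gave 2 in B, 3 in NK, 18 in fibroblast or adipose progenitor-like, 13 in alveolar and 12 in macrophage or monocyte-like cells, and 30 for a difference among classes. DESeq2 gave 4 in fibroblasts and 1 in macrophages, looser cell filters 2 in fibroblasts, and both cell cycle genes kept in clustering and dividing cells left out 1 in alveolar cells. With 1 library left out the counts ran from 0 to 8 (B), 3 (NK), 1 (dendritic), 6 (fibroblast), 24 (alveolar) and 4 (macrophage). In alveolar cells 24 came without the second room temperature library, and in B cells 8 without the first cold one; an arm left with 1 library is assumed to vary like the other.

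The labels number the libraries 1 and 2 in each group and say no more. Deviations of same-numbered libraries correlated at 0.162 in T cells, and from -0.371 (alveolar) to 0.265 (fibroblast) over the classes. The replicate block gave 1 member in NK, 11 in fibroblast (10 lower, 1 higher), 2 in alveolar and 3 in macrophage cells. Crossed numbers, chosen after seeing the data where the correlation was under -0.1, gave 0 in B, 13 in alveolar and 0 in hormone-sensing cells.

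The log2 fold change of the dividing share turned sign in B cells (-0.89 without the second cold library, range -0.89 to 1.78), in T cells (0.11 thinned; -0.80 to 0.67 with 1 library left out), in dendritic cells (0.044 with 5 UMIs of a mitotic panel, 0.16 thinned; -0.83 to 0.0034) and in macrophages (0.39 with cell cycle genes kept in clustering). In that setting for macrophages, a cluster of 94 cells with macrophage or monocyte and dendritic markers joined no class. In the whole fraction the difference ran from -3.40 to 0.372 percentage points. In T cells Ube2c (-0.43) and Cdc20 (-0.45) turned negative with dividing cells left out, and Ube2c (-0.21) and Ccnb1 (-0.26) without the Pclaf-led cluster. The cause was not tested. In classes with low recovery of simulated 2-fold changes, such as alveolar cells, a count of 0 says little. Elsewhere the simulated spread was not fitted to the members, so high recovery does not make a count of 0 informative.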
